A study of Homo sapiens with 18 samples.

Results

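The comparison described here set SJSA-1 cells that kept PD0332991 to the end against cells from which it had been withdrawn, with Nutlin present in both. It used 6 of the 18 RNA-seq libraries of the series, taken by their labels: 3 of the group N+PD30 and 3 of the group N+PD24. The comparison itself was chosen with earlier results of these data known. SJSA-1 is a human osteosarcoma cell line in which, according to the study, both the MDM2 and the CDK4 gene are amplified. N+PD24 cells were exposed to 10 µM PD0332991 over the initial 24 h of 30 h, and N+PD30 cells to 10 µM over all 30 h. Both groups received 20 µM Nutlin for the last 6 h. The other 12 libraries were vehicle (DMSO), Nutlin alone for 6 h, and the matching PD0332991 schedules without Nutlin, PD24 and PD30, with 3 libraries each. All of this is a single line. The study describes the 3 libraries of a group as biological replicates, the labels say no more than that they are triplicates, and p-values measure the spread between these libraries.

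PD0332991 (palbociclib) inhibits CDK4 and CDK6, the cyclin D-dependent kinases that phosphorylate RB and thereby release the E2F factors that drive genes of S phase entry. Nutlin blocks the binding of MDM2 to p53, so that p53 accumulates and its target genes, among them the CDK inhibitor CDKN1A and MDM2 itself, are transcribed. When p53 is active, CDKN1A also acts on cell cycle genes through RB-family proteins, some of which bind the G2/M promoters as part of the DREAM complex. Osteosarcoma is a tumour of bone-forming mesenchyme. The question addressed is which transcripts differ while p53 is switched on, according to whether the CDK4/6 inhibitor is still there.

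Values below are normalised read counts, that is reads per gene rescaled to a common library of 28085763 reads. Fold changes are N+PD30 over N+PD24 on the log2(value + 1) scale, so that a positive value means higher with the drug kept. A gene was called when its limma p, adjusted after Benjamini-Hochberg over all genes tested, was under 0.05 and its log2 fold change was beyond 1 in either direction. N+PD24 libraries held 24398809, 36939725 and 27694736 reads and N+PD30 libraries held 12704845, 29762195 and 20652310, so N+PD30 replicate 1 was the shallowest of the series. Of 12 osteoblast lineage markers, 9 passed the filter on low values and limma called none in either direction, with 1 at an unadjusted p under 0.05 and none called by edgeR or DESeq2. SP7, BGLAP and IBSP, genes of mature osteoblasts, did not pass, while COL1A1 and SPARC were abundant, at means of 80627 and 80072 in N+PD24 and 69435 and 70585 in N+PD30. Of 21 markers of other cell types, 11 passed, and the summed level of all 21 was 742.8 to 952.4 in N+PD24 and 455.1 to 749.4 in N+PD30, at most 0.00324% of a library. Among those 11, 5 were called lower (45.5%, against 7.45% of all genes), namely ITGAM, PECAM1, SYP, GFAP and ALB, and none higher. ITGAM, GFAP and ALB rested on 4 to 10 reads in each N+PD30 library. Of the 21, 7 had been raised by Nutlin alone. Without N+PD24 replicate 2 the count called lower was 2, and among genes above the median of mean level it was 0. CD3E, HBB, KRT5 and MYOD1, which define T cells, red cells, basal epithelium and muscle, were at means of 1.06 or less in both groups. In bulk RNA, fewer cells of a type and less RNA per cell cannot be told apart. What part cells of another kind had in the results was not tested.

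Of 15472 genes tested, 849 were called higher (5.49%) and 1153 lower (7.45%) in N+PD30, 12.9% in all. The adjusted p alone was passed by 16.1% on the higher and 15% on the lower side, and the groups did not overlap in 23.5% with N+PD30 higher and in 23.6% with N+PD30 lower. The median log2 fold change of all genes was 0.0034. When libraries were scaled by total counts, the median moved to 0.10 and the split to 1073 higher and 972 lower. Continued drug was therefore accompanied by more calls downward than upward under one scaling and the reverse under the other, and individual genes are given below.

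The genes around which the study was built moved in different directions. CDKN1A, the p21 inhibitor of cyclin-dependent kinases, stood at 121784, 150272 and 137220.4 in N+PD24 and 66423, 74039.9 and 55551 in N+PD30. Every N+PD30 library was below every N+PD24 library, and the fold change was -1.07 (SE 0.146, adjusted p = 0.0008). It was under the fold threshold in 4 of 19 alternatives, namely scaling by total counts (-0.97), quantile normalization (-0.83) and leaving out N+PD24 replicate 2 (-0.99) or N+PD30 replicate 3 (-0.95), with the adjusted p passed in each. In DMSO it was 3846 to 5922 and in Nutlin 107322 to 120136, so that all 6 libraries were far above DMSO. MDM2, the ubiquitin ligase of p53 and the target of Nutlin, was at 426541, 276344 and 287382 in N+PD24 and 174844, 214486 and 210209 in N+PD30, a fold change of -0.70 (SE 0.183, adjusted p = 0.0166). The groups did not overlap, and MDM2 passed the adjusted p but not the fold threshold. TP53I3, a p53-induced oxidoreductase, was at 4690.0, 5331 and 5363 in N+PD24 and 4160.4, 4010.1 and 2945 in N+PD30, with -0.48 (SE 0.151, adjusted p = 0.0354). BBC3, which encodes the apoptosis inducer PUMA, went the other way, with 164, 243 and 420.5 in N+PD24 and 451, 634 and 675 in N+PD30. Its N+PD30 libraries all exceeded its N+PD24 libraries, at 1.17 (SE 0.305, adjusted p = 0.0166). TP53I3 no longer passed the adjusted p without any one of N+PD24 replicate 2 or 3 or N+PD30 replicate 2 or 3, nor did MDM2 without N+PD30 replicate 1 (-0.57) or under quantile normalization (-0.13, adjusted p = 0.661), nor BBC3 without N+PD24 replicate 2 (1.13) or N+PD30 replicate 2 (1.10).

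Limma called none of the genes for CDK4, CDK6, CCND1, RB1 and RPLP0. CDK4 had a fold change of 0.09 (SE 0.126, adjusted p = 0.605) and RB1 of 0.06 (SE 0.161, adjusted p = 0.81), neither past the threshold, and their groups overlapped. The 95% intervals were -0.19 to 0.37 for CDK4 and -0.30 to 0.42 for RB1. CDK6 was lower at -0.62 (SE 0.151, adjusted p = 0.0125) without reaching the fold threshold. CCND1, the cyclin partner of both kinases, was at -0.26 (SE 0.12, adjusted p = 0.123), and the ribosomal protein gene RPLP0, used as a loading reference, at 0.08 (SE 0.176, adjusted p = 0.768). Directions of CDK4, RB1 and RPLP0 turned with centring by gene span or with single libraries left out and are not stated. CDKN1A, MDM2, TP53I3, BBC3, CDK4, CDK6, CCND1 and RB1 each overlap an annotated gene on the other strand, such as DINOL at CDKN1A and CPM at MDM2, and whether the library kit kept strand is not given in the sources used here. Among genes described below with library values, DUSP8, RASSF1, HSPA8, HMMR, ERCC6L, CCND2, MYC, SQSTM1, ZNF48, KRT77, SNAI3 and ABCA12 do too.

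**Figure D1:**
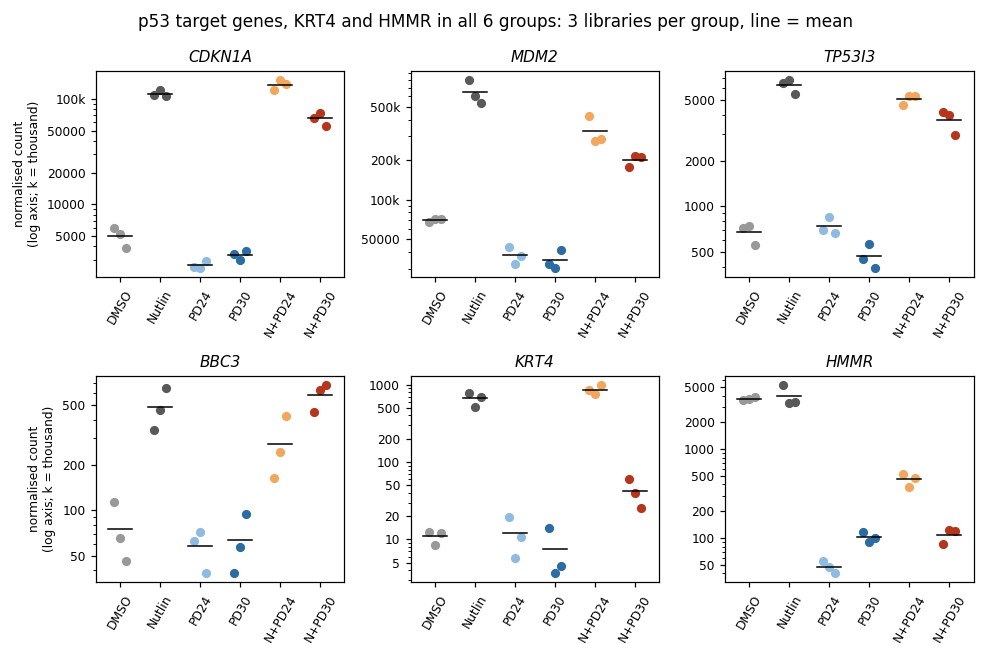
Normalised read counts (log axis) of CDKN1A, MDM2, TP53I3, BBC3, KRT4 and HMMR in the 3 libraries of each of 6 groups, with points for libraries and lines for group means. KRT4 was at 59.7, 39.8 and 25.9 in N+PD30 against 842, 761 and 977 in N+PD24, while HMMR averaged 109 in N+PD30 and 459 in N+PD24.

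A list of 77 direct p53 targets had 6 members called higher (7.79%, against 5.49% of all genes) and 7 lower (9.09%, against 7.45%), with a median of 0.14. The count lower was 2 when only genes above the median of mean level were tested, and the median was 0.24 under scaling by total counts. The proapoptotic and antiproliferative members PMAIP1 (NOXA) at 1.33 and BTG2 at 1.69 were higher, as were the coenzyme A kinase PANK1 at 1.79 and the calcium channel subunit ORAI3 at 1.31. Against DMSO, Nutlin alone had raised BTG2 (2.51), while PMAIP1 was at -0.83, PANK1 at 0.34 and ORAI3 at 0.62, with these not called. BTG2 stood at 1567, 1180.0 and 1662 in N+PD24 and 3869, 4784 and 5594 in N+PD30. Its N+PD30 libraries also lay above Nutlin alone, which gave 1961 to 2510.5. Lower members included the death receptor TNFRSF10A at -2.12, PADI4 at -2.07, the 14-3-3 protein gene SFN and the KIT ligand KITLG at -1.33. PADI4 rested on 4 to 11 reads in each N+PD30 library. SFN rested on 3 to 5 and did not pass the adjusted p in 3 of 18 alternatives (up to 0.0725). The death receptor gene FAS, named here after its values were seen, was at -0.69 (SE 0.124, adjusted p = 0.00293) and not past the fold threshold. Members of the list that Nutlin had raised numbered 48, of which 6 were called lower and 3 higher with a median of -0.22.

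Genes that Nutlin alone had moved were often called in the opposite direction where the inhibitor was kept. Nutlin against DMSO raised 1950 genes (12.4%) and lowered 1327 (8.42%) by edgeR's quasi-likelihood test with the same thresholds, in libraries outside the comparison. Of the raised genes, 1673 were tested here and 544 (32.5%, against 7.45% of all genes) were called lower in N+PD30. Another 41 were called higher (2.45%, against 5.49% of all genes). The median log2 fold change of the 1673 was -0.70. Without N+PD24 replicate 1 the count higher was 26. Of the lowered genes, 1228 were tested and 293 (23.9%, against 5.49% of all genes) were called higher. On the other side 46 were called lower (3.75%, against 7.45%), and the median of the 1228 was 0.53. Genes raised by Nutlin made up 47.2% of all genes called lower, and genes lowered by Nutlin made up 34.5% of all genes called higher. Outside the p53 list, 538 of 1625 raised genes were called lower with a median of -0.73. Many of the raised genes were weakly expressed, and among the 434 whose mean level was above the median of all genes, 86 were called lower and the median was -0.27. Over all genes above that level, 343 of 10617 were called lower. The filter on low values took the mean over all 6 libraries. A gene near silent in N+PD30 could therefore pass through its N+PD24 level alone, which can add to the share called lower.

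In most of these genes the N+PD30 mean had not crossed the DMSO mean, which is a comparison of means without a test. Of the 544 raised genes called lower, 407 kept an N+PD30 mean above DMSO. In 304 of the 544 the N+PD24 mean was beyond that of Nutlin alone, and in 236 it was between DMSO and Nutlin. Of the 293 lowered genes called higher, 196 kept an N+PD30 mean below DMSO and in 180 the N+PD24 mean was below Nutlin alone. Both sets were selected by how far N+PD24 lay from N+PD30, which by itself favours N+PD24 means beyond Nutlin alone. The same share over all tested genes of each list is not given, so no conclusion is drawn from these counts. Without Nutlin the same drug schedule gave medians of 0.13 over the 1288 raised and -0.27 over the 1292 lowered genes tested there, and of the 544 and 293 called genes, 320 and 293 were tested there and 37 and 28 called in the same direction. The fitted falls are bounded by depth, since 81 genes called lower had at most 3 reads in each N+PD30 library. ART4, an ADP-ribosyltransferase family gene, had no read in N+PD30 and was at least 10.8-fold lower, computed against a floor of 3 reads per library.

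**Figure D2:**
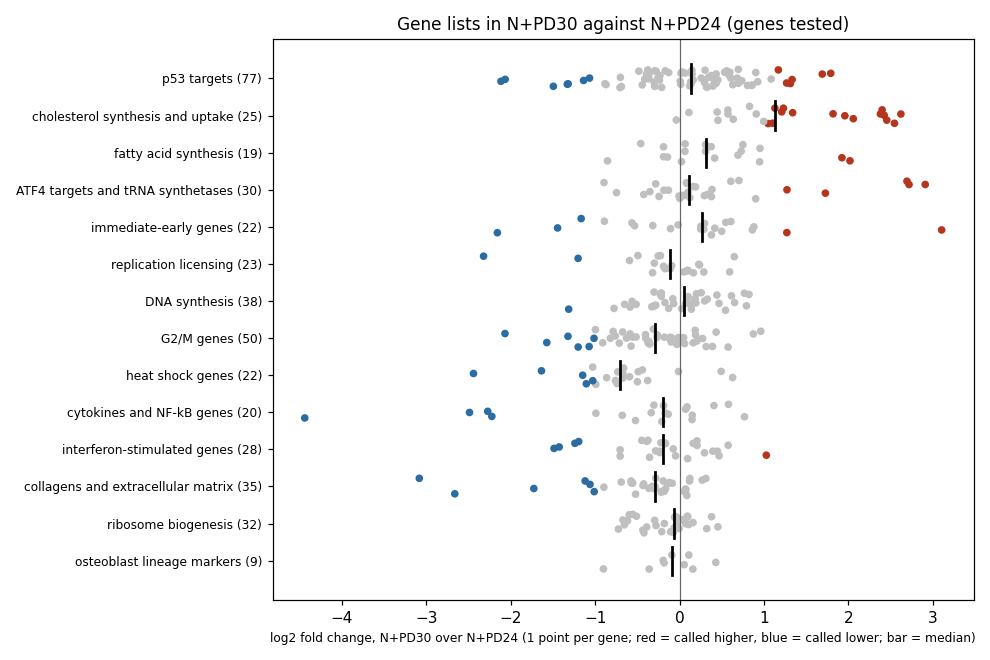
Log2 fold change of N+PD30 over N+PD24 for each tested member of a selection of the gene lists (1 point a gene, bar at the median), with genes called higher or lower in colour. The cholesterol list has its median at 1.13 and the heat shock list at -0.70, against 0.0034 over all genes.

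Epithelial keratins were among the largest falls. KRT4, a keratin of stratified mucosa on hg19 chromosome 12 from 53200333 to 53207900, stood at 842, 761 and 977 in N+PD24 and 59.7, 39.8 and 25.9 in N+PD30. Nutlin alone gave 517 to 781 and DMSO 8.6 to 12.3, so that N+PD30 lay between the groups without and with Nutlin. The fold change was -4.40 (SE 0.273, adjusted p = 5.92e-05). KRT78, nearby on chromosome 12 from 53231588 to 53242876, was at 159, 229 and 259 in N+PD24 and 13.3, 5.56 and 9.05 in N+PD30 with -4.44 (SE 0.332, adjusted p = 9.52e-05). Of 21 keratin genes tested, 7 were called lower (33.3%, against 7.45% of all genes) and none higher by limma, with a median of -0.47. The family was picked after its values were seen, so this share only describes it. Nutlin alone had raised 10 keratin genes, and of all tested genes it had raised, 32.5% were called lower. A weak keratin could pass the filter on low values through its N+PD24 level alone. KRT3, with at most 4 reads in an N+PD30 library, and KRT79 at -2.72 lie in the same stretch of chromosome 12. The others called lower were KRT19, KRT16 and KRT17. KRT4 and KRT78 were lower in every N+PD30 library than in every N+PD24 library, with KRT78 on 6, 6 and 7 reads in N+PD30.

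Peptidylarginine deiminases, which convert arginine in proteins to citrulline, were lower as well; they too were chosen after their values were seen. PADI1 was at 1831, 2195 and 1893 in N+PD24 and 232, 341 and 154 in N+PD30, a fold change of -3.09 (SE 0.248, adjusted p = 0.000113). PADI2 was at -2.64 and PADI4 at -2.07, both called, on 2 to 5 and 4 to 11 reads in each N+PD30 library. PADI3 at -0.68 (SE 0.132, adjusted p = 0.00421) passed the adjusted p alone. The genes lie side by side on chromosome 1, from 17393256, where PADI2 begins, to 17690499, where PADI4 ends, in hg19. All 4 had been raised by Nutlin alone. Among Nutlin-raised genes the largest fitted falls were in ZNF605, ART4, ZNF300P1 and TSGA10IP. ZNF605 was at 82.00, 184 and 107 in N+PD24 and 0, 2.78 and 0 in N+PD30, against 92.1 to 191 in Nutlin alone. N+PD30 libraries held at most 4 reads of any of these genes, so no fold is given for them beyond the bound for ART4. GOLGA6C, at 282, 355 and 385 in N+PD24 and 46.4, 36.1 and 25.9 in N+PD30 with -3.23 (SE 0.246, adjusted p = 9.52e-05), belongs to a family of near-identical copies and its reads may be shared among them. LOC730755 at -3.71, LOC100287036 at -3.37 and LOC729444 at -3.29 completed the largest falls among genes with a mean of at least 100 and could not be matched to the annotation.

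Genes of several secreted factors were lower with continued drug. IL11, a cytokine of the IL-6 family, stood at 3618, 2199.8 and 3206 in N+PD24 and 829, 852 and 318 in N+PD30. The groups did not overlap, with a fold change of -2.27 (SE 0.346, adjusted p = 0.00132). In DMSO it was 634 to 2315, whereas PD24 cells held 1973 to 4956 and PD30 cells 256 to 982. Its mean level was thus highest in the groups from which the drug had been withdrawn, with Nutlin or without. CSF2, the cytokine GM-CSF, was at 193, 130.1 and 224 in N+PD24 and 8.84, 4.63 and 9.05 in N+PD30, with -4.44 (SE 0.328, adjusted p = 9.01e-05), and the edgeR fold change of PD30 over PD24 was -4.79. The N+PD30 libraries held 4, 5 and 7 reads of CSF2. Of 20 tested cytokine and NF-kB genes, 4 were called lower (20%, against 7.45% of all genes) and none higher, with a median of -0.20. The others called lower were IL8 at -2.49 and IL1B at -2.22. Of 35 collagen and matrix genes, 6 were called lower (17.1%, against 7.45% of all genes) and none higher, with a median of -0.29. They included POSTN (periostin) at -2.66, on 2 to 7 reads in each N+PD30 library. The collagenase and stromelysin genes MMP1 at -1.12 and MMP3 at -1.73 were also among them. The count was 3 without N+PD24 replicate 1 and 3 without N+PD30 replicate 3, and MMP1 was not called without any one of 4 libraries.

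Sterol genes formed the list with the highest share of calls upward. The enzymes of cholesterol synthesis are transcribed through SREBP2, which INSIG1 helps to retain in the endoplasmic reticulum when sterol is plentiful. Of 25 genes tested, 15 were called higher (60%, against 5.49% of all genes) and none lower. A positive fold change was seen in 24, and the median was 1.13. INSIG1 stood at 360.3, 588 and 1203 in N+PD24 and 1806, 5177 and 6385 in N+PD30, a fold change of 2.62 (SE 0.494, adjusted p = 0.00356). SQLE, the squalene oxygenase, was at 609, 1030.1 and 1569 in N+PD24 and 2706, 6984 and 8080.3 in N+PD30, with 2.42 (SE 0.417, adjusted p = 0.00236). N+PD30 libraries lay above all N+PD24 libraries in both genes, although replicates differed widely. MSMO1, a sterol methyl oxidase, at 2.45 was also among the largest. The cholesterol exporter ABCA1, named after its values were seen, was lower at -2.71 (SE 0.348, adjusted p = 0.000615). The count of called genes was 9 without N+PD30 replicate 2 and 19 without N+PD30 replicate 1.

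Fatty acid synthesis genes had 2 of 19 called higher (10.5%, against 5.49% of all genes) and a median of 0.31. These were FASN, the fatty acid synthase, at 2.02 (SE 0.506, adjusted p = 0.0139), and the elongase ELOVL6 at 1.92 (SE 0.349, adjusted p = 0.00301). Without N+PD30 replicate 1 the count was 6 and without N+PD30 replicate 2 it was 1. The sterol rise was present without Nutlin too, where edgeR called 19 of 25 genes higher in PD30 than in PD24 with a median of 1.45. Over all genes tested there, 3.42% were called higher. Limma's test of the difference called none of the 25, of which 1 had an unadjusted p under 0.05.

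**Figure D3:**
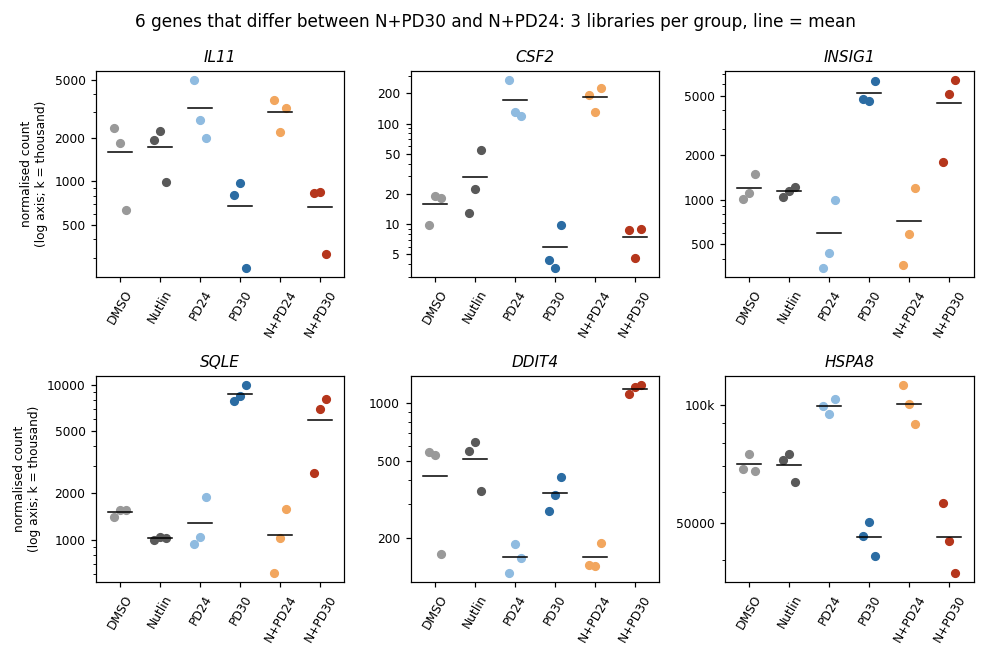
Normalised read counts (log axis) of IL11, CSF2, INSIG1, SQLE, DDIT4 and HSPA8 in the 3 libraries of each of 6 groups, with points for libraries and lines for group means. IL11, CSF2 and HSPA8 were lower, and INSIG1, SQLE and DDIT4 higher, in N+PD30 than in N+PD24.

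Stress-response genes controlled by ATF4, a factor translated when eIF2α is phosphorylated, supplied several of the largest rises. DDIT4, which restrains mTORC1, stood at 144, 142 and 188 in N+PD24 and 1119, 1205 and 1235 in N+PD30. Every N+PD30 library was above every N+PD24 library, at 2.91 (SE 0.157, adjusted p = 4.19e-05). CHAC1, which degrades glutathione, was at 42.2, 41.2 and 79.6 in N+PD24 and 183, 407 and 557 in N+PD30, with 2.72 (SE 0.395, adjusted p = 0.00106). TRIB3, a pseudokinase that binds AKT, was at 447, 664 and 1220.1 in N+PD24 and 2381, 5413 and 7657 in N+PD30, with 2.69 (SE 0.43, adjusted p = 0.00162). ATF4 itself was at 3472, 2710.5 and 3285 in N+PD24 and 8493, 10707 and 12366 in N+PD30, a fold change of 1.73 (SE 0.16, adjusted p = 0.000184). The list of 30 ATF4 targets and tRNA synthetases had 5 called higher (16.7%, against 5.49% of all genes) and none lower. Its median was only 0.11, and most of its members were not called. The median was 0.24 without N+PD30 replicate 1 and 0.069 without N+PD30 replicate 3. DDIT3, the factor CHOP, named after its values were seen, was called at 1.27. Of 21 endoplasmic reticulum chaperone and unfolded protein response genes, 2 were called higher (9.52%, against 5.49% of all genes) and none lower. They were the kinase gene EIF2AK3 at 1.44 and HERPUD1 at 1.24.

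The CHAC1 promoter is shown because CHAC1 combined a large rise with the element that ATF4 is known to bind. The sequence is that of RefSeq on GRCh38.p14, from 250 bases before to 50 bases after the start, at chr15:40953221-40953520 on the plus strand. Capitals mark matches to TGATGNAA on either strand.
CHAC1: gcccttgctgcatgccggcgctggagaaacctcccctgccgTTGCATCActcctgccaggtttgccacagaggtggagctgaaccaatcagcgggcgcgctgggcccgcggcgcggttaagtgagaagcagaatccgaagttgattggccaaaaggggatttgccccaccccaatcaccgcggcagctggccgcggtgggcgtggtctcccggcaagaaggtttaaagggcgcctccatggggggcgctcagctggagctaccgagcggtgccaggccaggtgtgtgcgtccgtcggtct
This motif was found in 8 of the 20 list genes that had a promoter in the table (40%), against 3.62% of 35116 promoters of the same length. Those 8 were AARS1, ASNS, CARS1, CHAC1, IARS1, NARS1, SLC3A2 and TARS1, and CHAC1 was the one called. List genes with and without the motif were not compared, so no conclusion is drawn from this count. A match is a description of letters and not of binding.

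Other large rises were in signalling genes. JUND, a member of the AP-1 family, stood at 48.5, 90.4 and 91.9 in N+PD24 and 676, 693 and 569 in N+PD30, with 3.11 (SE 0.248, adjusted p = 0.000113). DUSP8, a phosphatase of MAP kinases, was at 19.9, 34.9 and 60.95 in N+PD24 and 219, 216 and 427 in N+PD30, with 2.93 (SE 0.397, adjusted p = 0.000776). Both had their N+PD30 libraries above all N+PD24 libraries. The tumour suppressor RASSF1, lowered by Nutlin alone, was at 108, 99.9 and 116 in N+PD24 and 729.5, 553 and 689 in N+PD30, a rise of 2.59 (SE 0.167, adjusted p = 5.92e-05). Of 22 immediate-early genes, 2 were called higher (9.09%, against 5.49% of all genes) and 3 lower (13.6%, against 7.45%), with a median of 0.27. The count higher was 4 without N+PD30 replicate 1, and 1 without N+PD24 replicate 2 or with no intensity trend. JUNB was the other one called higher at 1.27 (SE 0.347, adjusted p = 0.0204), but its groups overlapped and it was not called without N+PD24 replicate 1 (0.96) or N+PD24 replicate 2 (1.15). FOSB at -2.16, KLF2 at -1.45 and KLF10 at -1.17 fell. The ERK feedback list of 18 had DUSP8 higher and DUSP2, at -2.07 on 4 to 9 reads in each N+PD30 library, lower. That was 5.56% each way, against 5.49% higher and 7.45% lower of all genes.

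Heat shock genes were mostly lower. These chaperones are transcribed through HSF1. Of 22 tested, 5 were called lower (22.7%, against 7.45% of all genes) and none higher. On the lower side 17 passed the adjusted p, against 15% of all genes. The median was -0.70, with 20 below 0. HSPA8, the constitutive HSP70, stood at 112513, 100754 and 89758 in N+PD24 and 56174, 44783 and 37158 in N+PD30, with -1.15 (SE 0.166, adjusted p = 0.00101). DNAJA1, a co-chaperone of HSP70, was at 11881, 11706 and 11035 in N+PD24 and 6269, 5283 and 4656 in N+PD30, with -1.10 (SE 0.132, adjusted p = 0.000465). Both genes had every N+PD30 library below every N+PD24 library. HSP90AA1, the inducible HSP90, named after its values were seen, was called at -1.03. HSPA1A at -2.44 and HSPA1B at -1.64 are near-identical copies whose reads can be split by the counting, and each is uncertain on its own. Without Nutlin, edgeR called 4 of the 22 lower in PD30 than in PD24, with a median of -0.47. Over all genes tested there, 4.07% were called lower.

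The promoters of HSPA8 and DNAJA1 are shown because both were called and both hold the heat shock element searched for, which is GAA, TTC and GAA separated by 2 free bases each, or the same on the other strand. They are RefSeq sequences on GRCh38.p14, HSPA8 from chr11:123062087-123062386 on the minus strand and DNAJA1 from chr9:33025023-33025322 on the plus strand, printed 5′ to 3′ with matches on either strand in capitals.
HSPA8: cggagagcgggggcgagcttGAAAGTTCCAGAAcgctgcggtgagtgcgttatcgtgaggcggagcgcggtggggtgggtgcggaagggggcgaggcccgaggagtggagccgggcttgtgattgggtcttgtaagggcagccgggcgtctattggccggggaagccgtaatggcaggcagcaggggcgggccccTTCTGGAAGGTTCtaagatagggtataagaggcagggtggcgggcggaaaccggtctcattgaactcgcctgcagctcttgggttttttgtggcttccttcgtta
DNAJA1: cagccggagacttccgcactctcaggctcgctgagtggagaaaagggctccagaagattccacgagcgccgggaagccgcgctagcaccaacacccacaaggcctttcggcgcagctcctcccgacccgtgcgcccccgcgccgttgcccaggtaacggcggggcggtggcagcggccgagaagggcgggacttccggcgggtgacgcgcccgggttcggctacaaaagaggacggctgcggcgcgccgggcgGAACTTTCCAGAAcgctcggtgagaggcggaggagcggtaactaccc
HSPA8 holds 2 matches, on opposite strands. The element was present in 6 of 19 heat shock genes with a promoter in the table (31.6%) and in 0.490% of all 35116. Those 6 were CHORDC1, DNAJA1, HSP90AA1, HSP90AB1, HSPA8 and HSPD1, of which 3 were called lower and none higher, with a median of -0.95.

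MCM2, a subunit of the replicative helicase named after its values were seen, had a mean of 635 in N+PD24 and 592 in N+PD30 against 5078 in DMSO, and its fold change was -0.11 (SE 0.161, adjusted p = 0.635). Of 23 licensing genes, 2 were called lower (8.70%, against 7.45% of all genes) and none higher, with a median of -0.11. The called ones were MCM10, an initiation factor, at 75.8, 84.9 and 82.7 in N+PD24 and 19.9, 17.6 and 10.3 in N+PD30 and -2.32 (SE 0.296, adjusted p = 0.00059), and the origin recognition subunit ORC4 at -1.20 (SE 0.149, adjusted p = 0.000536). Of 38 DNA synthesis genes, DSCC1 at -1.31 alone was called lower (2.63%, against 7.45% of all genes) and none higher, with a median of 0.05. The medians of both lists changed sign under some alternatives. Of 17 E2F and G1/S genes, E2F5 at 1.38 was called higher and E2F2 at -1.98 lower. That was 5.88% each way, near the 5.49% higher and 7.45% lower of all genes. Of 27 homologous recombination and Fanconi genes, BRIP1 at -1.29, BLM at -1.19 and RAD54L at -1.16 were called lower, and PALB2 at 1.02 and FANCF at 1.01 higher. These shares were 11.1% lower and 7.41% higher, against 7.45% and 5.49% of all genes. The groups overlapped in BLM, which was not called without any one of 4 libraries. Without N+PD30 replicate 3, 1 gene of this list was called lower, and without N+PD30 replicate 2 none was called higher by limma.

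Of 50 G2/M genes tested, 6 were called lower (12%, against 7.45% of all genes) and none higher, with a median of -0.29. The count lower was 2 when only genes above the median of mean level were tested, and 4 under scaling by total counts, where the median was -0.19. Under quantile normalization the median was -0.15. HMMR, a spindle-associated hyaluronan receptor, stood at 526, 377 and 474 in N+PD24 and 86.2, 121 and 119 in N+PD30, with -2.07 (SE 0.2, adjusted p = 0.000221). Its N+PD24 libraries were well above its N+PD30 libraries and well below DMSO at 3546 to 3808 and Nutlin at 3324 to 5210.0. ASPM, a spindle pole protein, was at 53.4, 78.5 and 51.7 in N+PD24 and 19.9, 22.2 and 16.8 in N+PD30, with -1.57 (SE 0.279, adjusted p = 0.0027). The kinesins KIF14 at -1.32 and CENPE at -1.20 followed. DMSO means were 6373 for ASPM, 3077 for KIF14 and 4183 for CENPE, so both groups were far below DMSO. These 3 genes had 8 to 38 reads in each N+PD30 library. ANLN at -1.07 and KIF11 at -1.01, the last of the 6 and named after their values were seen, were just past the fold threshold. Among genes lowered by Nutlin, ERCC6L, a mitotic helicase, was at 93.2, 142 and 174 in N+PD24 and 15.5, 12.04 and 12.9 in N+PD30, with -3.21 (SE 0.288, adjusted p = 0.00018). The DMSO mean of ERCC6L was 1408. CDCA2, a mitotic phosphatase regulator, was lower at -2.73. Without Nutlin, edgeR called 4 of 52 G2/M genes higher in PD30 than in PD24 and none lower, with a median of 0.29. Over all genes tested there, 3.42% were called higher and 4.07% lower.

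The HMMR promoter is shown because HMMR had the largest change of that list and holds the cell cycle homology region TTTGAA, through which the DREAM complex is known to bind. It is the RefSeq sequence on GRCh38.p14 at chr5:163460382-163460681 on the plus strand, with matches on either strand in capitals.
HMMR: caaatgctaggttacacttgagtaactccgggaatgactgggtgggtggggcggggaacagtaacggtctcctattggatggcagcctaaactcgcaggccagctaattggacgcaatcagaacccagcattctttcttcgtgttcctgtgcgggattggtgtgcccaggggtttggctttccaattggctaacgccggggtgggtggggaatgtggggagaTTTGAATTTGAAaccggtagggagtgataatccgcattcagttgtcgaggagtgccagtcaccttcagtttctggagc
HMMR holds 2 matches. The 6 letters occurred in 32 of 44 G2/M genes with a promoter in the table (72.7%) and in 15.2% of all promoters. Of the 32, 31 were tested, 5 were called lower and none higher, with a median of -0.40.

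Regulators of G1 moved both ways. CCND2, a D-type cyclin, was at 1431, 1130.0 and 1215 in N+PD24 and 3351, 3463 and 4335 in N+PD30, with 1.56 (SE 0.147, adjusted p = 0.000194). CDKN2D, the CDK4/6 inhibitor p19, was at 175, 151 and 132 in N+PD24 and 338, 491 and 640.0 in N+PD30, with 1.64 (SE 0.233, adjusted p = 0.000967). Every N+PD30 library exceeded every N+PD24 library in both. With CDKN1A they were the 3 genes called in a list of 15. That was 13.3% higher and 6.67% lower, against 5.49% and 7.45% of all genes. MYC was at 511, 685 and 739.7 in N+PD24 and 192, 198 and 238 in N+PD30, a fold change of -1.61 (SE 0.18, adjusted p = 0.000362). Nutlin alone gave MYC 175 to 335, PD24 gave 2062 to 2483 and DMSO 911 to 1159. In a list of 12, the MYC antagonists MNT at 1.13 and MXD4 at 1.07 were called higher (16.7%, against 5.49% of all genes). Without N+PD24 replicate 1, 1 of them was called. Limma, edgeR and DESeq2 called none of 32 ribosome biogenesis genes. In limma 9 of them passed the adjusted p on the lower side and none on the higher side, and at an unadjusted p under 0.05 there were 11 lower and 2 higher.

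Among the remaining lists, interferon-stimulated genes had 4 of 28 called lower (14.3%, against 7.45% of all genes) and STAT2 at 1.03 higher, with a median of -0.20. The lower ones were IFI44 at -1.49, MX2 at -1.43, USP18 at -1.24 and OAS2 at -1.19. Of 40 lysosome and V-ATPase genes, SQSTM1, the autophagy receptor p62, was called lower. TFEB at 1.28, a factor for lysosomal genes, was called higher, though not without N+PD30 replicate 2 (1.09). That was 2.5% each way, against 7.45% lower and 5.49% higher of all genes. SQSTM1 stood at 41528, 57797 and 54601 in N+PD24 and 18211, 18905 and 17204 in N+PD30, with -1.49 (SE 0.143, adjusted p = 0.000218), and its DMSO level of 15789 to 19539.8 was near that of N+PD30. Of 28 hypoxia and glycolysis genes, EGLN3 at -1.23 was the one called (3.57%, against 7.45% lower of all genes). Without N+PD30 replicate 1 limma called 2 lower and 2 higher. Of 23 tested histone genes, HIST2H2BE at -1.71 was lower and HIST1H3E at 2.07 higher. That was 4.35% each way, against 7.45% lower and 5.49% higher of all genes. Of 11 reference genes, TBP at 1.01 was called higher (9.09%, against 5.49% of all genes). In 8 of 19 alternatives it was under the fold threshold, down to 0.85 under quantile normalization.

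PD30 against PD24 addresses whether the same genes differed when p53 had not been activated. Of 15171 genes tested by edgeR's quasi-likelihood test, 519 were called higher in PD30 (3.42%) and 618 lower (4.07%), 7.49% in all. Of 14891 genes tested in both comparisons, 841 were called higher under Nutlin and 508 without it, and 168 in both, or 20.0% and 33.1% of each. On the lower side 848 and 566 were called and 278 were shared, or 32.8% and 49.1%. Opposite calls were made for 7 genes that were higher and 11 that were lower under Nutlin. The test of the difference, limma over 12 libraries, called 1203 of 15220 genes (7.9%), 736 with a more positive change under Nutlin (4.84%) and 467 with a more negative one (3.07%). The number depended on single libraries, with 787 called without PD30 replicate 1, of which 489 were more positive and 298 more negative, and 268 more negative without N+PD24 replicate 2.

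Several genes named above differed by that test. CDKN1A was at 0.34 without Nutlin, and the difference was -1.38 (SE 0.18, adjusted p = 0.000813). HMMR was called in opposite directions, at 1.13 without Nutlin, with a difference of -3.15 (SE 0.27, adjusted p = 0.00017). KRT4 differed by -3.71, and its level without Nutlin was low throughout, at 5.82 to 19.7 in PD24 and 3.7 to 14.04 in PD30. DDIT4 differed by 1.81 and JUND by 1.96, in both of which the rise was larger with Nutlin. In the licensing list MCM3, MCM4, MCM5, GINS3 and CDC7, named after their values were seen, were called more positive, at 1.09, 1.04, 1.65, 1.42 and 1.10, and ORC4 more negative at -1.09. Without Nutlin 7 of 23 licensing genes were called lower in PD30 than in PD24, against 4.07% of all genes tested there. MCM4 for example had a mean of 1841 in PD24 and 711 in PD30, but 712 in N+PD24 and 578 in N+PD30. Of 52 G2/M genes, HMMR and ASPM were called more negative and none more positive.

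For other genes the difference was not past the threshold. IL11 gave 0.05 (adjusted p = 0.971), CSF2 0.19 (0.843), SQLE -0.41 (0.661), SQSTM1 -0.10 (0.802) and HSPA8 -0.03 (0.944), each on the log2 scale. None of the heat shock, fatty acid or matrix genes was called in that limma test, with 6, 5 and 7 of them at an unadjusted p under 0.05.

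**Figure D4:**
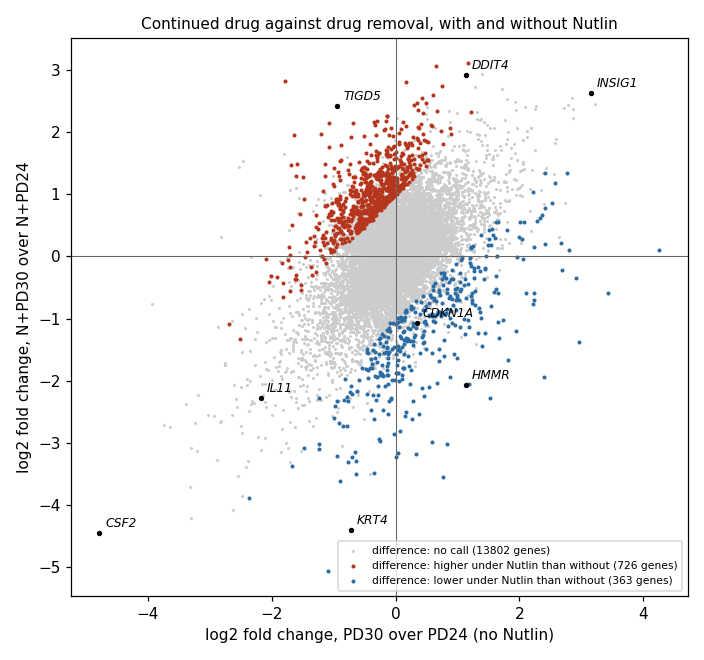
Log2 fold change of PD30 over PD24 without Nutlin (x axis, edgeR) against N+PD30 over N+PD24 with Nutlin (y axis, limma), 1 point a gene tested in both. Colours mark 726 genes whose difference was called more positive and 363 more negative under Nutlin, and the other 13802 were not called or not tested for it.

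The genes called higher shared features that their selection did not use. Annotation of GENCODE on GRCh37 gave a value for 94.6% of genes tested, 95.4% of those called higher and 88.8% of those called lower. The median gene span was 33.4 kb over all tested genes, 17.1 kb in those called higher and 40.8 kb in those called lower. Median transcript GC was 48.0%, 54.0% and 48.2%. When genes were cut into 10 equal bins by span, 10.4% of the shortest bin were called higher, against 1.30% of the longest. By GC, 2.87% of the lowest bin and 12.7% of the highest were called higher. After centring the fold changes within bins of GC or of span, alternatives added after seeing the data, limma called 1940 genes (760 higher, 1180 lower) and 1945 genes (810 higher, 1135 lower).

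**Figure D5:**
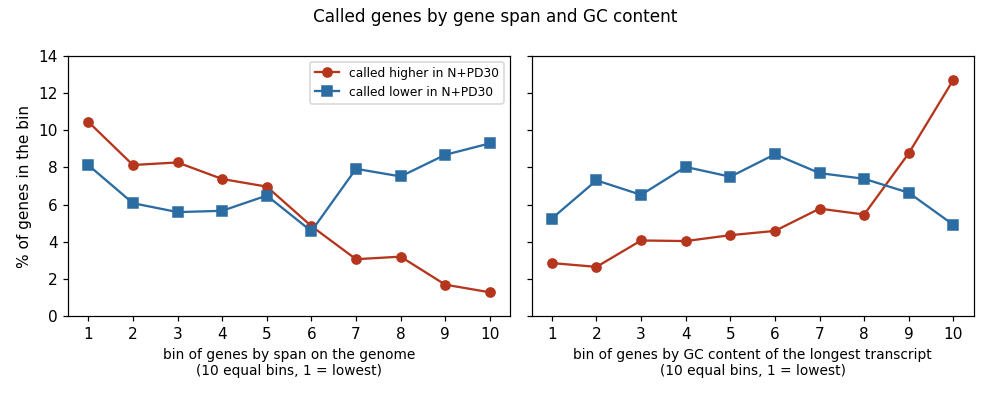
Percent of tested genes called higher or lower in N+PD30, in 10 equal bins of gene span (left) and of transcript GC (right), shortest or lowest first. The share called higher runs from 10.4% in the shortest to 1.30% in the longest bin, and from 2.87% in the lowest to 12.7% in the highest GC bin.

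Zinc finger genes of the ZNF series were numerous among the rises. Of 458 tested, 105 were called higher (22.9%, against 5.49% of all genes) and 8 lower, with a median of 0.52. The family was picked after its values were seen. ZNF48, lowered by Nutlin alone, stood at 14.9, 22.997 and 36.2 in N+PD24 and 135, 188 and 187 in N+PD30, with 2.80 (SE 0.318, adjusted p = 0.000377). Its N+PD24 level was near that of Nutlin alone at 19.5 to 39.1, and its N+PD30 level was nearer to DMSO at 203 to 284. Nutlin alone had lowered 149 of the ZNF genes and raised 22, and of all tested genes it had lowered, 23.9% were called higher. PER1, a circadian repressor named after its values were seen, showed the same order with 23.6, 49.96 and 59.9 in N+PD24 and 190.1, 255 and 266 in N+PD30, at 2.47 (SE 0.325, adjusted p = 0.000677). KIAA0664L3 at 3.06 and TRIB3 were further rises among genes lowered by Nutlin.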

How the data were processed

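Libraries were made from total RNA of SJSA-1 cells and sequenced. The authors mapped reads to hg19 with TopHat and Bowtie2 and counted them per gene with HTSeq 0.6.0, set to the reverse strand. The deposited values of DMSO, Nutlin, PD24, PD30 and N+PD30 were whole-number read counts. The deposited values of N+PD24 were a normalised signal, counts divided by 1 factor per library; dividing by the smallest step (0.794 to 1.28) gave whole reads for 100% of values within a tolerance of 1e-04. Depth was 12704845 to 40231041 reads per library. The tables held 23368 gene symbols, 28 of them in the form of dates, and 21709 with a count.

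Libraries were TMM-scaled to 28085763 reads, and for limma genes with a mean of at least 10 over the libraries compared were kept. The edgeR fits used TMM and edgeR's own filter on low counts (filterByExpr). N+PD30 was compared with N+PD24, and the difference of the changes with and without Nutlin was tested, by limma with an intensity trend on log2(value + 1). PD30 against PD24 and Nutlin against DMSO were tested on counts by edgeR's quasi-likelihood test. All p-values were Benjamini-Hochberg adjusted, and calls needed an adjusted p below 0.05 together with a log2 fold change beyond 1 in either direction. Same-numbered PD24 and PD30 libraries deviated from their group means together (correlations 0.27, 0.49 and 0.25), so these numbers may pair the samples, which the labels do not state. The main fits had no block, and a fit with a replicate block was an alternative. Each fit was tested on simulated data.

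Named genes were those the study follows, the 6 largest called rises and falls with a mean of at least 100 and groups that did not overlap, up to 4 called genes per list and direction, and the 4 largest called differences in each direction; others are said to be named after their values were seen. Some genes that this rule names are not reported here. The comparison, the gene lists and the markers were chosen with earlier results of these data known. Gene positions are from GENCODE on GRCh37 (92.4% of symbols matched), promoters from RefSeq on GRCh38.p14. Alternatives covered scaling, filters, pseudocounts, tools, the replicate block and leaving out each library. Limma 3.58.1, edgeR 4.0.16 and, as an alternative, DESeq2 1.42.0 were run in R 4.3.3.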

Additional observations from a re-analysis of the deposited data

Results flagged for a closer look

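The changes with and without Nutlin differed in 1203 genes by limma's test of the difference, which is what marked them for a closer look. Of the genes with a mean of at least 100, the largest differences toward a more negative change under Nutlin were in KRT4, KRT77, GOLGA6C and HMMR. KRT4 differed by -3.71 (SE 0.66, adjusted p = 0.00373). KRT77, a skin keratin, differed by -3.24 (SE 0.80, adjusted p = 0.0182): it was at 113, 192 and 261 in N+PD24 and 122, 82.4 and 277 in N+PD30, which overlap, and at 17.8, 3.49 and 8.08 in PD24 and 85.1, 34.02 and 104 in PD30. Without PD30 replicate 1 its difference was -3.07 and no longer passed the adjusted p. GOLGA6C differed by -3.20 (SE 0.33, adjusted p = 0.000384) and HMMR by -3.15 (SE 0.27, adjusted p = 0.00017).

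Toward a more positive change under Nutlin the largest were TIGD5, HIC1, ZNHIT2 and MAP1S, each of which overlaps an annotated gene on the other strand. TIGD5 differed by 3.37 (SE 0.50, adjusted p = 0.00151), with 12.4, 29.3 and 32.03 in N+PD24 and 124, 131 and 123 in N+PD30 against 197, 306 and 141 in PD24 and 72.8, 109 and 145 in PD30. HIC1, a transcriptional repressor, differed by 3.16 (SE 0.62, adjusted p = 0.00643), with 74.5, 125 and 188 in N+PD24 and 447, 318 and 266 in N+PD30 against 214, 271 and 93.6 in PD24 and 28.95, 73.2 and 72.1 in PD30. ZNHIT2 differed by 3.01 (SE 0.66, adjusted p = 0.0107) and MAP1S, a microtubule-associated protein, by 2.77 (SE 0.57, adjusted p = 0.00781).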

How the results depend on the processing

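Changes of the low-value filter and of the call rule moved counts most. For N+PD30 against N+PD24, 1973 genes were called lower with no filter, 884 genes (541 higher, 343 lower) among those above the median of mean level, and 4817 (2495 higher, 2322 lower) by the adjusted p alone. By adjusted p alone, PD30 against PD24 gave 3816 (1853 higher, 1963 lower) and the test of the difference 2065 (1372 more positive), and that test gave 911 more negative with no filter. Leaving out single libraries gave 1644 to 2179 calls for N+PD30 against N+PD24 (712 to 1021 higher, 864 to 1181 lower), 956 to 1341 for PD30 against PD24 (440 to 592 higher, 516 to 749 lower) and 787 to 1415 for the difference (489 to 920 more positive, 268 to 495 more negative). With edgeR or DESeq2 on the recovered reads, N+PD30 against N+PD24 gave 2064 and 2233 calls. Genes raised by Nutlin with a log2 fold change over 2 had a median of -1.07.

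Same-numbered N+PD24 and N+PD30 libraries correlated by 0.039, 0.058 and 0.26, and N+PD30 replicate 1 correlated more with N+PD24 replicate 2 (0.18). Pairing by number was therefore not established for these libraries. With a replicate block 2008 genes were called for N+PD30 against N+PD24, 1226 for PD30 against PD24 and 1545 for the difference, none of which moved a count by over 1.5 times.

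Directions turned for CDK4 (-0.022, centred by gene span) and RPLP0 (-0.038, centred by gene span), neither of which was called. Leaving out single libraries turned RPLP0 (-0.046 to 0.24), RB1 (-0.033 to 0.27), KRT77 (-0.83 to 0.040) and MCM2 (-0.20 to 0.014), which were not called either. The cause was not tested. Of 114 named genes called, 103 passed the adjusted p in every alternative and 87 passed the fold threshold in every one as well. Each group is 3 libraries of 1 line, and at the depth of N+PD30 the lowest level that 3 reads allow was 4.43 normalised reads, so falls of weak genes are limited by depth. Removing the drug and changing the medium cannot be told apart, since the sources used here do not say whether the medium of N+PD30 cells was changed at 24 h.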

Other observations

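Genes lowered by Nutlin and lower again in N+PD30 than in N+PD24 numbered 46 of 1228 tested. Besides ERCC6L and CDCA2 they included RGS4, a regulator of G protein signalling, at 216, 71.4 and 114 in N+PD24 and 17.7, 11.1 and 25.9 in N+PD30, with -2.74 (SE 0.423, adjusted p = 0.00142) by limma. PD24 cells held 286 to 873 and PD30 cells 29.8 to 51.6 of it, so its level was lower in the continued-drug group with Nutlin and without. Conversely, among the 41 genes raised by Nutlin and higher in N+PD30, SNAI3, a zinc finger repressor, was at 12.4, 39.7 and 55.8 in N+PD24 and 108, 176 and 164 in N+PD30, with 2.23 (SE 0.467, adjusted p = 0.00613). KIAA1683 at 2.06, SORCS2 at 1.98 and CCDC11 at 1.89 were the next. SORCS2 was not called without N+PD24 replicate 1, N+PD30 replicate 2 or N+PD30 replicate 3.

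Lipid-linked and lineage genes outside the lists, named after their values were seen, included ABCA12, a lipid transporter of keratinocytes, at 149, 194 and 216 in N+PD24 and 81.8, 90.8 and 77.6 in N+PD30, with -1.14 (SE 0.201, adjusted p = 0.00262), and a difference from the comparison without Nutlin of -2.02. Apart from these kinds of genes, SESN2, a stress-induced inhibitor of mTORC1 signalling also named after its values were seen, was higher at 1.27 (SE 0.217, adjusted p = 0.00228).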
